A study of Rattus norvegicus with 46 samples.

Results

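Ferroportin (gene Slc40a1) and hephaestin (gene Heph) are the exporter and the ferroxidase through which iron leaves the absorptive cells of the gut. These are 2 of the 14217 genes named by a probe set with a single gene symbol. All probe sets carrying either symbol were taken, which gave 4 probe sets, 3 for Slc40a1 and 1 for Heph, of 31042 probe sets on the array after 57 control probe sets were set aside. All 4 passed the filter on dim probe sets, which kept 26517.

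Rats of the Wistar strain and Belgrade rats (b/b), bred on the Wistar background, were studied on Affymetrix arrays of duodenal RNA. Wistar animals (+/+) were 1 month old at the start. The 4 control rats ate a normal diet. The 4 iron-deficient rats (Iron-def) ate a low iron diet for 4 weeks, during which 2 to 3 ml of blood was drawn every 3 days. The 3 iron-repleted rats (Fe-repletion) had the same diet and bleeding and then drank 50 µM ferric ammonium citrate for the last 3 days. Belgrade rats carry a mutation of Slc11a2, which encodes the apical iron importer DMT1. Of these, 4 were kept on a normal diet, 4 were fed iron for 3 days (b/b + Fe 3 Days) and 3 for 6 days (b/b + Fe 6 days). The labels say that other procedures matched those of the Wistar rats, without an age or a separate iron dose. All rats had been fasted overnight. From each of the 22 rats a 1 cm stretch of duodenum near the pylorus was cut in a cryostat across the crypt-villus axis. Sections of the upper villus (top) were pooled into 1 RNA sample and sections of the lower villus (bottom) into another, so each array holds every cell type of its level of the mucosa. One further +/+ rat, handled in a separate experiment, gave a lower crypt and an upper crypt array.

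Iron taken up at the brush border crosses the enterocyte and is released to the blood at the basolateral membrane. Ferroportin is the only known cellular exporter of iron in mammals. Hephaestin, a membrane-anchored copper-containing ferroxidase related to plasma ceruloplasmin, oxidises the exported ferrous iron so that transferrin can bind it. Mice without working hephaestin hold iron in the enterocyte and become anaemic. Ferroportin protein is removed from the membrane when the liver hormone hepcidin binds it. Ferroportin mRNA is under the control of iron regulatory proteins and, in the gut, of the hypoxia factor HIF-2α. Macrophages that recycle red cells also make ferroportin.

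The promoters are shown because Slc40a1 and Heph varied together from rat to rat at the villus bottom while their upstream sequences are unlike. With group means removed, Pearson r was 0.912 on bottoms and 0.285 on tops. Without control rat 3 and iron-repleted rat 3 the bottom value was 0.629. The difference between bottoms and tops was not tested. A link between the sequences and this variation was not tested. Both promoters were matched by symbol in the RefSeq table of the GRCr8 build. The 250 bases before each annotated start are given 5′ to 3′ on the gene's strand, with the matches of the searched motifs in capitals.
Slc40a1, chr9:55543461-55543710, minus strand: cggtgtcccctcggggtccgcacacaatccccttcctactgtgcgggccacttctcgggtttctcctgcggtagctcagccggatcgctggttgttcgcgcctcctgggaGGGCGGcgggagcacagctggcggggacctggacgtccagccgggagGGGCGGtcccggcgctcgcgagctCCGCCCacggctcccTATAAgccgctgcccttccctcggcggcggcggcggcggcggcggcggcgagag
Heph, chrX:65308806-65309055, plus strand: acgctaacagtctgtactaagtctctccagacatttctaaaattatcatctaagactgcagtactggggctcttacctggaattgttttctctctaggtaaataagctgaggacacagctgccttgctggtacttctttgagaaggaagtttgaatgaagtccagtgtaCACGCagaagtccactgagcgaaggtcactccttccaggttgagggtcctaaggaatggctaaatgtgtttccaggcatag
The motifs, searched on both strands, were the hypoxia response cores ACGTG and GCGTG, the metal response cores TGCACNC and TGCGCNC, the GC box GGGCGG, the TATA motif TATAA, the antioxidant response core TGACNNNGC and the CDX core TTTAT. In the Slc40a1 window the GC box occurred 3 times and TATAA 1 time. In the Heph window a single GCGTG lay on the opposite strand, printed as CACGC. Of 33469 promoters of this length, 30.5% held the GC box, 24% TATAA, 25.9% GCGTG, 16.6% ACGTG, 39.3% TTTAT and 10.1% TGACNNNGC. The metal response cores were in 10.3% (TGCACNC) and 11.8% (TGCGCNC). The Slc40a1 window was 74% G and C with 33 CpG sites, and 95.8% of promoters had a lower share. The Heph window was 44.8% G and C with 3 CpG sites, and 26.5% of promoters had a lower share. A match describes letters and not a site in use.

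Levels below are log2 of the normalized intensity plus 44 intensity units, and differences are on that scale, where 1 unit is a doubling. Tests are limma's moderated tests over the 26517 probe sets, two-sided, with Benjamini-Hochberg adjustment, and a difference counts as called where its adjusted p is under 0.05. Control rats 1 and 2, and Belgrade rats 1 and 2 on the normal diet, differed from each other less than any other rats of a group did. Each pair was averaged and counted as 1 sample, which leaves 20 counted samples: 3 control, 4 iron-deficient, 3 iron-repleted, 3 Belgrade on the normal diet, 4 Belgrade with 3 days of iron and 3 with 6 days. Each rat gives 1 counted value per villus level otherwise, and the number of animals limits the precision. On villus tops, means of 8 enterocyte markers lay between 16.12 and 16.80 on the 22 arrays, and on villus bottoms between 12.75 and 15.73. A pair of bottom arrays stood apart. Control rat 3 and iron-repleted rat 3 had mean levels of 15.82 and 15.72 for 13 smooth muscle and stroma markers, where the other 20 bottom arrays lay between 12.63 and 14.92. Their enterocyte means were 13.38 and 12.75, the lowest of all. The main results of Slc40a1 and Heph are therefore given with and without these rats. Results of the partner, basolateral and marker lists are with all rats only.

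Ferroportin mRNA was among the brightest signals of the villus top. Its brightest probe set (1387130_at) had deposited intensities of 101207 to 230839 on the 22 top arrays, and at most 0.3% of the probe sets of an array were as bright. On the 22 bottom arrays it ranged from 7567.3 to 76339.9. In control rats 1 to 4 the top levels were 17.09, 17.04, 16.73 and 17.08. Those of iron-deficient rats 1 to 4 were 17.43, 17.29, 17.32 and 17.12. In iron-repleted rats 1 to 3 they were 17.11, 17.22 and 17.18. Iron-deficient rats lay above every control rat, and the repleted rats lay above the controls too, by small margins; 7.46% and 7.74% of probe sets have such an arrangement. Belgrade rats 1 to 4 on the normal diet had top levels of 17.25, 17.28, 17.18 and 17.34. With 3 days of iron the 4 Belgrade tops were at 17.20, 17.23, 17.04 and 17.30, and with 6 days the 3 tops were at 17.10, 17.32 and 17.26. The Belgrade groups overlapped one another at the top. Those on the normal diet lay above every control, as for 7.39% of probe sets.

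At the villus bottom the rats spread over a much wider range. Ferroportin bottom levels of control rats 1 to 4 were 14.45, 14.42, 13.25 and 14.47. The iron-deficient bottoms were at 15.74, 15.73, 16.04 and 15.39, all above every control. The repleted bottoms were at 15.60, 16.16 and 12.94, with rat 3, one of the 2 stroma-rich arrays, below every control and the other rats above them. Belgrade rats on the normal diet had bottom levels of 15.81, 15.86, 15.69 and 15.95, all above every control. After 3 days of iron the Belgrade bottoms were at 14.74, 15.79, 14.60 and 15.34. After 6 days they were at 15.47, 15.61 and 15.13, and each of these lay below every Belgrade rat on the normal diet. Over all probe sets, 6.63% separate iron-deficient from control bottoms in this way, 7.18% Belgrade from control bottoms and 6.21% the 6-day group from the normal diet.

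Hephaestin was likewise bright at the top and more widely spread at the bottom. Its probe set (1368533_at) had deposited intensities of 88880.9 to 131816 on the tops and 4339.6 to 34462.3 on the bottoms. Top levels of control rats 1 to 4 were 16.78, 16.76, 16.57 and 16.67. The iron-deficient tops were at 16.83, 16.88, 16.73 and 16.71 and the repleted tops at 16.80, 16.60 and 16.73. These groups overlapped. Belgrade tops on the normal diet were at 16.83, 16.89, 16.34 and 16.68. With iron they were at 16.69, 16.56, 16.50 and 16.48 after 3 days and at 16.80, 16.73 and 16.81 after 6 days. Among the 9 comparisons made, hephaestin separated the rats at the top only between the iron-fed Belgrade groups. There every rat of the 6-day group lay above every rat of the 3-day group, as for 3.31% of probe sets. The difference was 0.23 and was not called.

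Bottom levels of Heph in control rats 1 to 4 were 14.36, 14.38, 13.01 and 13.33. The iron-deficient bottoms were at 14.98, 15.04, 15.18 and 14.38, with rat 4 level with control rat 2 and the others above every control. The repleted bottoms were at 14.29, 14.68 and 12.002, rat 3 again being the lowest of all 22. Belgrade bottoms on the normal diet were at 14.78, 14.56, 14.44 and 15.0045, above every control. They were at 14.11, 14.43, 13.68 and 13.89 after 3 days of iron and at 14.33, 14.37 and 13.81 after 6 days. In both iron-fed Belgrade groups every rat lay below every Belgrade rat on the normal diet. At 3 days this rests on rat 2 at 14.4343 against rat 3 on the normal diet at 14.4355. Their deposited intensities, 20349.9 and 20343, had the reverse order. Of all probe sets, 7.18% separate Belgrade from control bottoms upward, and 2.99% and 6.21% separate the 3-day and 6-day groups from the normal diet downward.

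**Figure D1:**
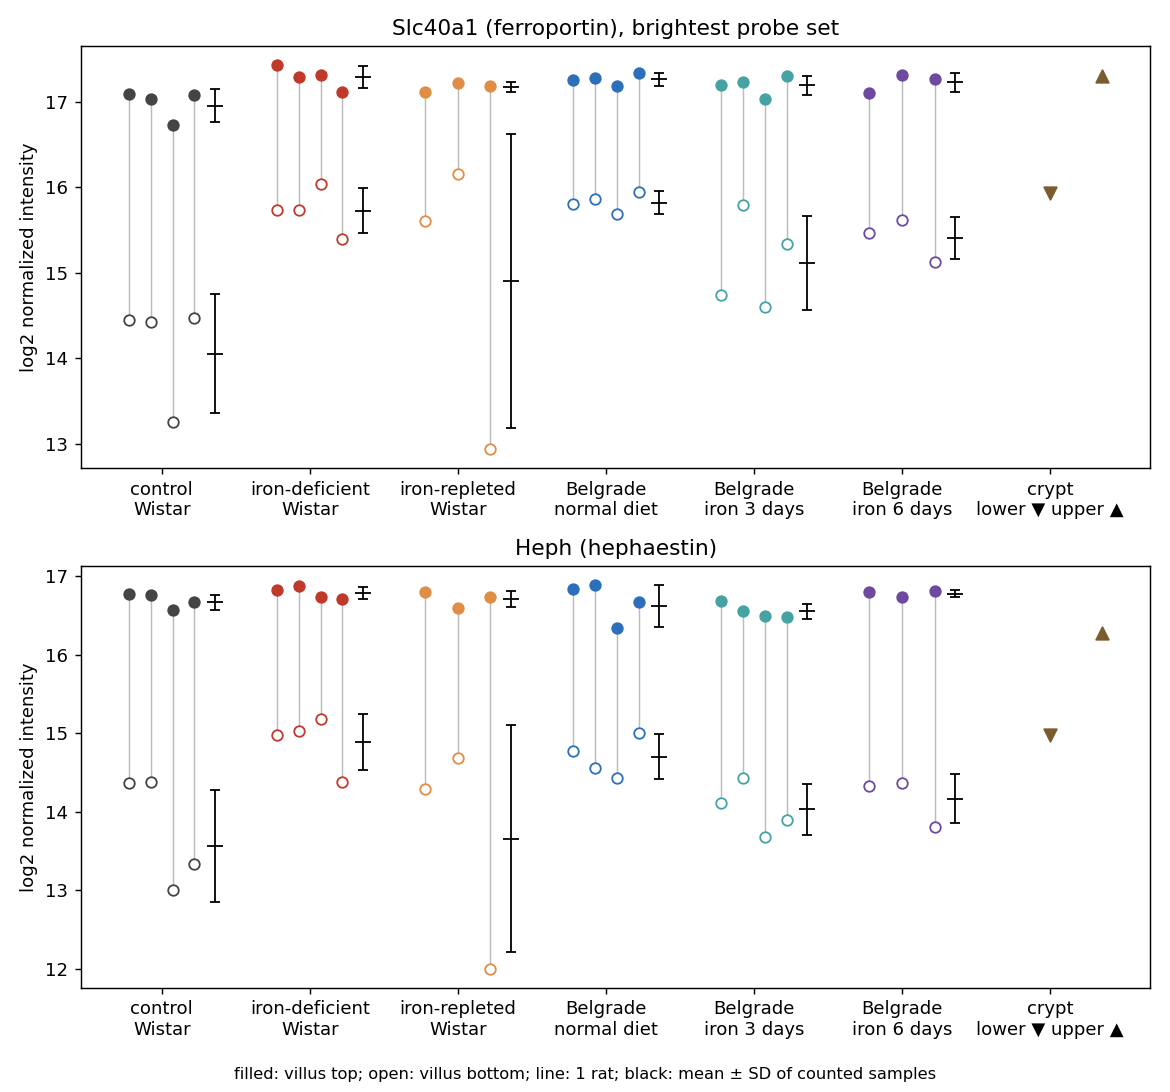
Log2 normalized intensity (vertical axis) of the brightest Slc40a1 probe set and of Heph in each rat of the 6 groups, with the 2 arrays of the crypt rat at the right. Filled points are villus tops, open points villus bottoms, and a grey line joins the 2 arrays of a rat. Black marks are the mean ± SD of the counted samples. Slc40a1 tops lie between 16.73 and 17.43, where quantile normalization bounds the levels of bright probe sets. Before normalization they ran from 16.63 to 17.82. Slc40a1 bottoms spread from 12.94, on the stroma-rich array of repleted rat 3, to 16.16.

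Both genes were higher at the villus top than at the bottom in 22 of 22 rats. The difference ranged from 1.06 to 4.24 for ferroportin and from 1.55 to 4.73 for hephaestin. Averaged over the 6 groups, ferroportin was 2.01 ± 0.16 higher at the top (SE, 20 counted samples; 4.04-fold; 95% interval 1.67 to 2.35; limma adjusted p = 1.16e-08). Hephaestin was 2.52 ± 0.15 higher (SE, 20 counted samples; 5.73-fold; 95% interval 2.21 to 2.83; limma adjusted p = 2.77e-10). Differences along the villus were common: 54.2% of probe sets were called in this comparison and 25.5% were called higher at the top. A larger difference toward the top was found in 1.81% of probe sets for Slc40a1 and in 0.818% for Heph. Without the 2 stroma-rich rats the differences were 1.80 ± 0.083 and 2.34 ± 0.094.

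Each group alone also showed the difference. With all samples, for ferroportin it was largest in control rats at 2.90 ± 0.41 (7.48-fold) and smallest in Belgrade rats on the normal diet at 1.44 ± 0.41 (2.71-fold), with limma adjusted p = 7.9e-05 and adjusted p = 0.023. In between lay iron-deficient rats at 1.56 ± 0.36, Belgrade rats with 6 days of iron at 1.82 ± 0.41 and with 3 days at 2.08 ± 0.36, and repleted rats at 2.27 ± 0.41. For hephaestin the control group was at 3.10 ± 0.38, the iron-deficient group at 1.89 ± 0.33 and Belgrade rats on the normal diet at 1.92 ± 0.38. Repleted rats were at 3.05 ± 0.38, and iron-fed Belgrade rats at 2.53 ± 0.33 and 2.61 ± 0.38 after 3 and 6 days. The ferroportin order rests on repleted rat 3: its slope was 4.24, against 1.51 and 1.06 in the other repleted rats, whose mean of 1.29 lies below that of Belgrade rats on the normal diet. For hephaestin the mean of these 2 rats was 2.21. All 12 group slopes were called with all samples. In the single groups 24.2% of probe sets were called in control, 29.5% in iron-deficient and 32.6% in repleted rats. In Belgrade rats 16.7% were called on the normal diet, 25.4% after 3 and 22.7% after 6 days of iron.

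The flatter slope of the iron-deficient and Belgrade groups was not called. The top minus bottom difference of ferroportin was 1.34 lower in iron-deficient than in control rats (difference -1.34, 95% interval -2.49 to -0.19; limma adjusted p = 0.48) and 1.46 lower in Belgrade rats on the normal diet (difference -1.46, 95% interval -2.69 to -0.23; adjusted p = 0.73). For hephaestin the values were -1.21 (adjusted p = 0.485) and -1.18 (adjusted p = 0.765). No probe set was called in either comparison by limma, while 9.04% and 6.45% had an unadjusted p under 0.05. All counted samples of the iron-deficient and Belgrade groups lay below all control samples for ferroportin, an arrangement that 6.4% and 9.29% of probe sets share.

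The composition of the sections changed along the villus as well. Of 8 measured enterocyte markers, 7 were called higher at the top and 1 lower, with a median difference of 2.12. Of 13 smooth muscle and stroma markers, 8 were called lower at the top and 0 higher, with a median of -1.01. Over all probe sets the median was 0.02, with 54.2% called and 25.5% called higher. In bulk RNA, fewer cells of a type and less RNA per cell cannot be told apart, and the part of section composition in the slope was not tested. Of 10 macrophage markers, 6 were called higher at the top and 1 lower, with a median of 0.71. Their mean level lay between 11.13 and 11.90 on tops and between 10.59 and 11.64 on bottoms.

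Group means at the villus bottom ran, for ferroportin, from Belgrade on the normal diet (15.82 ± 0.13, SD) through iron-deficient (15.72 ± 0.26), Belgrade with 6 days of iron (15.40 ± 0.25), Belgrade with 3 days (15.12 ± 0.55) and repleted (14.90 ± 1.72) to control (14.05 ± 0.69). Within this order only the step from iron-deficient to Belgrade with 6 days of iron exceeded the larger SD of the 2 neighbours. For hephaestin the order was iron-deficient (14.89 ± 0.36), Belgrade on the normal diet (14.70 ± 0.29), 6 days (14.17 ± 0.31), 3 days (14.03 ± 0.32), repleted (13.66 ± 1.45) and control (13.57 ± 0.71). Here only the step from Belgrade on the normal diet to the 6-day group exceeded the larger SD. These orders are for all rats and turn on repleted rat 3. Without it the repleted mean was 15.88 ± 0.39 (SD, 2 rats) for ferroportin, first in the order, and 14.48 ± 0.28 for hephaestin, between Belgrade rats on the normal diet and those with 6 days of iron. At the top the 6 group means spanned 16.96 to 17.29 for ferroportin, with control lowest, and 16.56 to 16.79 for hephaestin.

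The first question of the design was how iron deficiency changes the duodenum. Averaged over top and bottom, ferroportin was 1.00 ± 0.27 (SE) higher in iron-deficient than in control rats, a 2.00-fold difference with a 95% interval of 0.45 to 1.56. All 4 iron-deficient samples lay above all 3 control samples. The difference was not called in the fit over all 6 groups (limma adjusted p = 0.0848), in which 0.404% of probe sets were called. Higher samples without overlap were found for 7.84% of probe sets. Hephaestin was 0.72 ± 0.23 higher (1.65-fold; 95% interval 0.24 to 1.21; adjusted p = 0.149).

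The change of this difference along the villus was not called (limma adjusted p = 0.48 for ferroportin and adjusted p = 0.485 for hephaestin). Quantile normalization bounds the levels of bright probe sets such as these at the top. The estimate was larger at the villus bottom. There ferroportin was 1.67 ± 0.50 higher in iron-deficient rats (3.19-fold; 95% interval 0.64 to 2.71; limma adjusted p = 0.186) and hephaestin 1.33 ± 0.44 higher (2.51-fold; 95% interval 0.41 to 2.24; adjusted p = 0.222). The counted samples did not overlap for either gene, as for 6.63% of probe sets, although for hephaestin the lowest iron-deficient rat and the highest control rat were both at 14.38. No probe set was called by limma at the bottom, and 13% had an unadjusted p under 0.05. At the top the differences were 0.33 ± 0.14 for ferroportin (adjusted p = 0.303) and 0.12 ± 0.14 for hephaestin (adjusted p = 0.812), with 0.977% of probe sets called.

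The calls turned on the 2 stroma-rich rats. Without iron-repleted rat 3, which is in neither group but widens the shared estimate of the spread, ferroportin was called at the same difference (1.00 ± 0.18; limma adjusted p = 0.00789; 1.78% of probe sets called). Hephaestin was then called as well (0.72; adjusted p = 0.032). At the bottom alone without that rat the adjusted p was 0.00783 for ferroportin and 0.0204 for hephaestin, with 1.24% called. Without control rat 3 alone, ferroportin was 0.75 higher with an adjusted p of 0.4. Without both rats it was 0.75 ± 0.17 higher (adjusted p = 0.0613; 0.445% called) and hephaestin 0.56 ± 0.18 (adjusted p = 0.202). Leaving out 1 sample at a time, the ferroportin difference over both levels ran from 0.75 to 1.14. Over 38 alternatives, which include each level alone, it ran from 0.33 (top alone) to 1.67 (bottom alone). The limma adjusted p ran from 0.00783 to 0.528, and 5 of these alternatives called the difference. One counted all 22 rats separately (0.94; adjusted p = 0.0347; 2.56% called) and one was fitted on the 2 groups alone (1.00; adjusted p = 0.0318; 1.6% called).

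Stroma and macrophage markers moved the other way at the bottom. All 13 stroma markers were lower in iron-deficient than in control bottoms, with a median of -1.38 and 0 called. Their mean level was 12.79 to 13.31 in the iron-deficient bottoms and 13.15 to 15.82 in the controls. The 8 enterocyte markers had a median difference of 0.83, with 0 called, and means of 14.74 to 15.22 against 13.38 to 15.26. Macrophage markers were lower for 9 of 10, with 0 called. Red blood cell markers were higher for 3 of 3 kept by the filter (median 0.99, 0 called), with means over 4 markers of 9.75 to 10.45 against 9.60 to 9.97. Brunner's gland and gastric markers were higher for 3 of 3 (median 1.19, 0 called), with means of 8.87 to 10.68 against 7.75 to 8.60. The part of these markers in the differences was not tested. Control rats 1 and 2, counted as 1 sample, had stroma means of 13.15 and 13.24, within the range of the iron-deficient rats, and ferroportin levels of 14.45 and 14.42 against 15.39 to 16.04. Their bottom arrays carried 11 exocrine pancreas markers at means of 14.41 and 14.45, and that of iron-deficient rat 1 at 15.86. In Belgrade rats these markers were at 12.67 in rat 3 on the normal diet, 13.05 in rat 4 with 3 days and 12.07 in rat 2 with 6 days of iron. The other bottom arrays lay between 7.74 and 8.61. The part of pancreatic RNA in the differences was not tested. With the stroma level of each sample as a covariate, the difference of the mean over both levels was 0.47 for ferroportin (adjusted p = 0.528) and 0.30 for hephaestin (adjusted p = 0.709). The part of section composition in the group differences was not tested further.

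**Figure D2:**
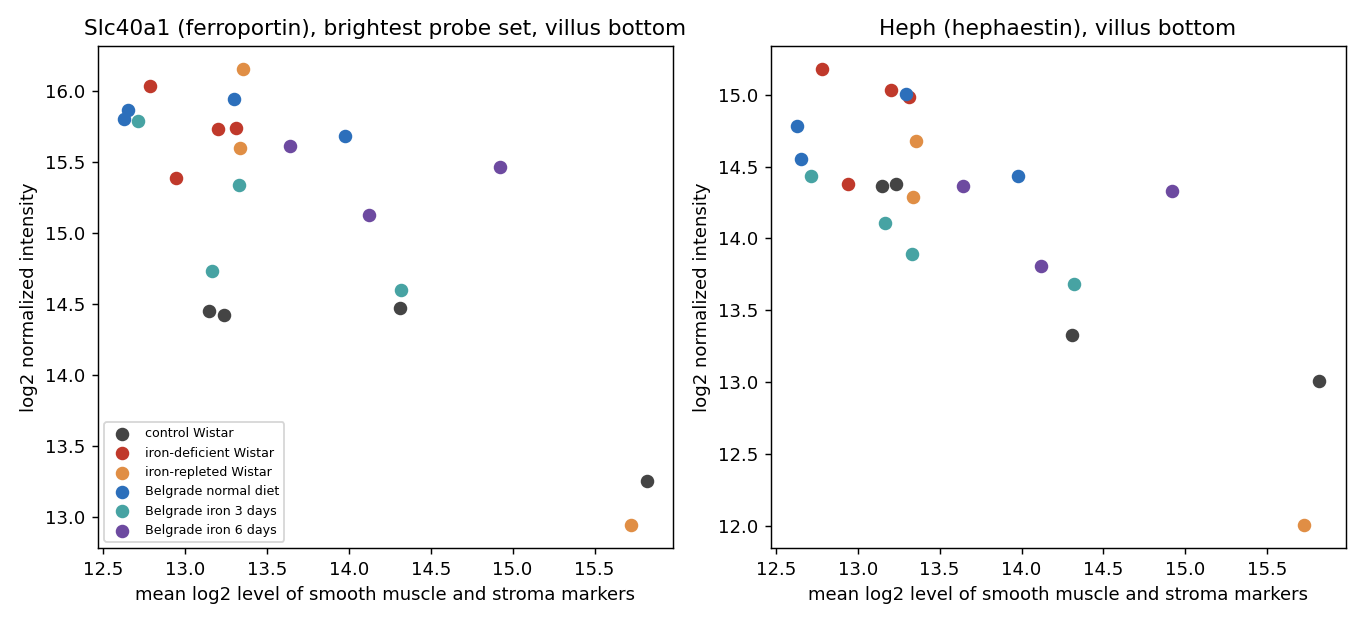
Log2 normalized intensity of Slc40a1 and Heph (vertical axes) on the 22 villus bottom arrays against the mean log2 level of 13 smooth muscle and stroma markers on the same array (horizontal axis), coloured by group. Control rat 3 and iron-repleted rat 3 stand at the right at 15.82 and 15.72. Control rats 1 and 2, counted as 1 sample, lie at 14.45 and 14.42 for Slc40a1. Their bottom arrays also carried exocrine pancreas markers at means of 14.41 and 14.45. The part of section composition in the group differences was not tested.

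Belgrade rats on the normal diet were compared with control rats to ask what loss of DMT1 function does without a change of diet. Ferroportin was 1.04 ± 0.29 higher over both levels (2.05-fold; 95% interval 0.45 to 1.63), without overlap of the counted samples. The difference was not called (limma adjusted p = 0.379); 0.0113% of probe sets were called and 7.13% were higher without overlap. At the bottom ferroportin was 1.77 ± 0.53 higher (3.41-fold; adjusted p = 0.747) and hephaestin 1.13 ± 0.47 (2.20-fold; adjusted p = 0.747), with 0.00377% called. Both separated the counted samples at the bottom, as 7.18% of probe sets did. At the top ferroportin was 0.31 ± 0.15 higher (adjusted p = 0.759) and hephaestin -0.04 ± 0.15 (adjusted p = 0.999), with 0.0905% called. Over both levels hephaestin was 0.54 ± 0.25 higher (adjusted p = 0.823).

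Without iron-repleted rat 3 the ferroportin difference between Belgrade and control rats was called at the same size (limma adjusted p = 0.0258; 0.241% of probe sets called). At the bottom alone it was then 1.77 (adjusted p = 0.0227; 0.0566% called). Without control rat 3 as well it was 0.78 ± 0.18 (adjusted p = 0.153; 0.128% called). Stroma markers were lower for 13 of 13 in the Belgrade bottoms, with a median of -1.18 and 0 called. Red blood cell markers were higher for 3 of 3 (median 1.43, 0 called), with means of 10.0025 to 11.53, and Brunner's gland and gastric markers for 2 of 3 (median 0.45, 0 called); their part was not tested. With the stroma level of each sample as a covariate, the difference over both levels was 0.52 for ferroportin (limma adjusted p = 0.999) and 0.13 for hephaestin.

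Belgrade rats on the normal diet and iron-deficient Wistar rats had close ferroportin means. The difference over both levels was 0.04 ± 0.27 for ferroportin (95% interval -0.52 to 0.59; limma adjusted p = 1) and -0.18 ± 0.23 for hephaestin (95% interval -0.66 to 0.31; adjusted p = 1). Differences up to these bounds remain possible. No probe set was called by limma in this comparison, and 4.6% had an unadjusted p under 0.05. This comparison shares its samples with the comparisons to control above.

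Iron given by mouth to iron-deficient rats for 3 days was the next comparison. Ferroportin differed by -0.47 ± 0.27 between repleted and iron-deficient rats (95% interval -1.02 to 0.08; limma adjusted p = 0.471) and hephaestin by -0.66 ± 0.23 (95% interval -1.14 to -0.17; adjusted p = 0.261). No probe set was called by limma, and 12.8% had an unadjusted p under 0.05. The values rest on repleted rat 3. Without it ferroportin differed by 0.02 (adjusted p = 0.99), a change of sign, and hephaestin by -0.25 (adjusted p = 0.758). Bottom differences were -0.82 ± 0.50 for ferroportin and -1.24 ± 0.44 for hephaestin, and 0.15 and -0.41 without that rat. Brunner's gland and gastric markers were lower in the repleted bottoms for 3 of 3 (median -1.21, 0 called), with means of 7.83 to 9.67; their part was not tested.

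Against control, repleted rats were 0.53 ± 0.29 higher for ferroportin (limma adjusted p = 0.388) and 0.06 ± 0.25 for hephaestin (adjusted p = 0.936), with 0.0679% of probe sets called. Without repleted rat 3 ferroportin was 1.02 higher and was called (adjusted p = 0.031; 1.09% of probe sets called), and 0.76 without control rat 3 as well (adjusted p = 0.124; 0.249% called). Hephaestin without repleted rat 3 was 0.47 higher (adjusted p = 0.251). Repleted rats 1 and 2 had ferroportin bottoms of 15.60 and 16.16, the first within and the second above the range of the iron-deficient rats, 15.39 to 16.04.

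In Belgrade rats, iron for 3 days went with a ferroportin difference of -0.39 ± 0.27 (95% interval -0.94 to 0.16; limma adjusted p = 1) and a hephaestin difference of -0.37 ± 0.23 (95% interval -0.86 to 0.11; adjusted p = 1). After 6 days the differences from the normal diet were -0.23 ± 0.29 and -0.19 ± 0.25. At the bottom they were -0.71 ± 0.50 for ferroportin and -0.67 ± 0.44 for hephaestin after 3 days, and -0.42 ± 0.53 and -0.53 ± 0.47 after 6 days. No probe set was called by limma over both levels in either comparison, while 2.75% and 4.22% had an unadjusted p under 0.05. Hephaestin bottoms did not overlap with the normal diet after either time, nor did ferroportin bottoms after 6 days. For hephaestin at 3 days the nearest rats were level, at 14.4343 and 14.4355, and reversed before normalization. Such lower values without overlap were found for 2.99% of probe sets at 3 days and 6.21% at 6 days. Stroma means on the bottom arrays were 13.64 to 14.92 in the 6-day group, 12.71 to 14.32 in the 3-day group and 12.63 to 13.98 on the normal diet. With the stroma level of each sample as a covariate, the sign of the 6-day difference turned, to 0.23 for ferroportin and 0.17 for hephaestin (limma adjusted p = 0.999 for both). Xist, a transcript of the inactive X chromosome, was above a level of 12 in all 3 samples of the 6-day group and in 1 of 3 on the normal diet; with this as a covariate the hephaestin difference was 0.055 (adjusted p = 1). Heph lies on the X chromosome.

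The 2 iron-fed Belgrade groups differed by 0.16 ± 0.27 for ferroportin and 0.18 ± 0.23 for hephaestin, 6 days minus 3 days, neither called (limma adjusted p = 0.999 for both). Xist was above a level of 12 in all 3 samples of the 6-day group and in 1 of 4 of the 3-day group. Its part in the hephaestin tops was not tested. No probe set was called by limma here, and 4.84% had an unadjusted p under 0.05. Belgrade rats with 3 days of iron and repleted Wistar rats, both given iron for 3 days, differed by 0.12 ± 0.27 for ferroportin (95% interval -0.44 to 0.67; adjusted p = 0.861) and 0.11 ± 0.23 for hephaestin (adjusted p = 0.853). In that comparison 0.192% of probe sets were called. Both signs turned without repleted rat 3, to -0.37 and -0.30, and with the stroma covariate, to -0.22 and -0.16.

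**Figure D3:**
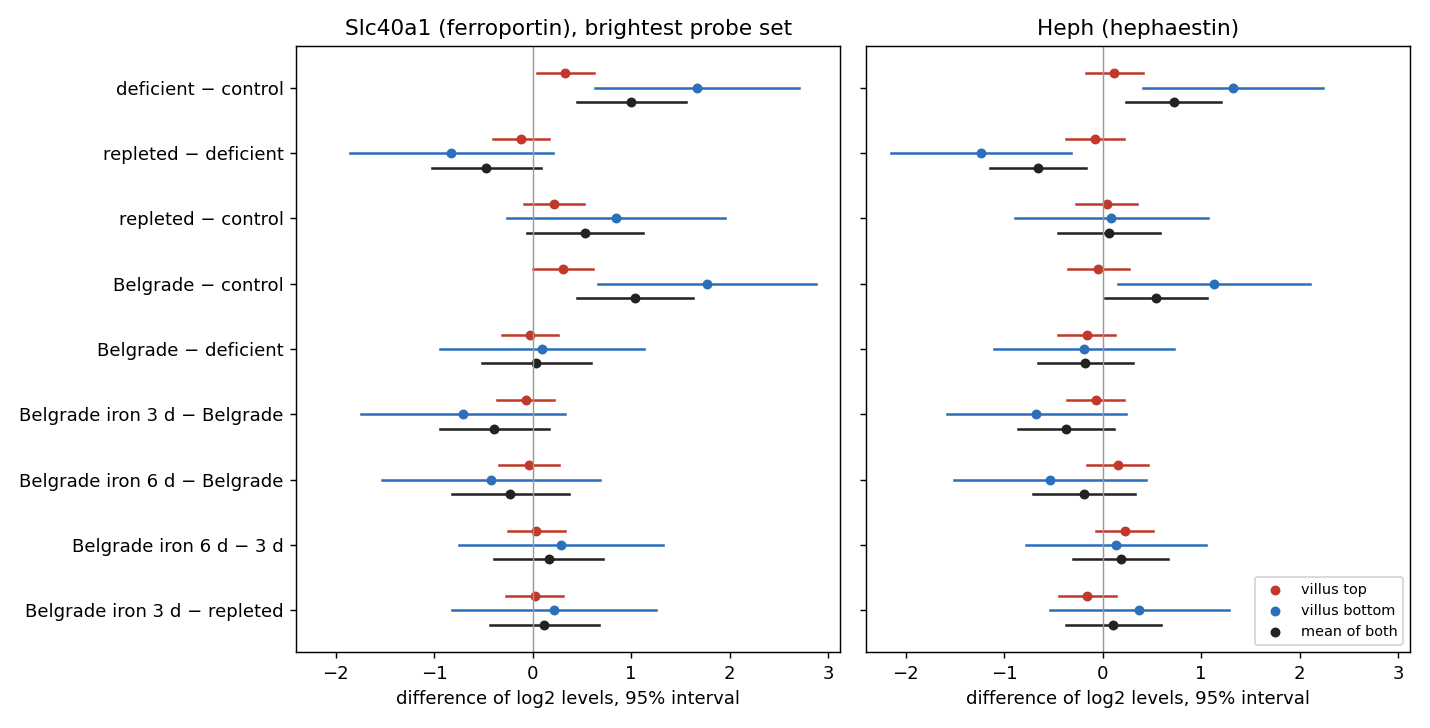
Differences of log2 levels between groups (horizontal axis) for Slc40a1 and Heph in the 9 comparisons (vertical axis), with 95% intervals, at the villus top, at the bottom and for the mean of both. Intervals at the bottom are the widest; the bottom differences from control reach 1.67 and 1.77 for Slc40a1 in iron-deficient and Belgrade rats, and those at the top stay within 0.33.

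The other Slc40a1 probe sets carry the same gene symbol. The second brightest (1390412_at) had control bottoms of 14.38, 14.52, 13.15 and 14.40 and iron-deficient bottoms of 15.65, 15.71, 15.87 and 14.86, again without overlap. Its top minus bottom difference averaged 2.02 ± 0.16 (limma adjusted p = 9.91e-09) and was positive in 22 of 22 rats. Its difference between iron-deficient and control rats was 0.93 ± 0.26 (adjusted p = 0.105) and between Belgrade and control rats 1.08 ± 0.28 (adjusted p = 0.3). These values are close to those of the brightest probe set.

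The dim probe set (1376972_at) departed from both. Its levels were 11.82 to 15.96 on tops and 10.63 to 13.65 on bottoms. The top was higher in 17 of 22 rats, with an average difference of 0.66 ± 0.26 (1.58-fold; limma adjusted p = 0.0415). Its highest value, 63883.1 intensity units, was on the top array of repleted rat 3, where the other 21 top arrays had levels of at most 13.93. Without that rat the average difference was 0.38 (adjusted p = 0.0194), while leaving out 14 of the 19 other samples, one at a time, gave 0.61 to 0.68 and ended the call, with adjusted p up to 0.0758. In the single groups the difference was called only in repleted rats (1.96), where rat 3 had 5.33 and the others 0.35 and 0.20, a mean of 0.28. Between iron-deficient and control rats it differed by 0.57 ± 0.36 (adjusted p = 0.506).

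Ferroportin and hephaestin varied together from rat to rat within groups. With group means removed, the mean levels of the 20 counted samples gave Pearson r = 0.867 (permutation p = 0.00129, adjusted 0.00194) and Spearman rho = 0.770 (permutation p = 0.00254, adjusted 0.00381) in a family of 6 relations. Without control rat 3 and repleted rat 3, the samples farthest from the median of ferroportin, r was 0.541 (permutation p = 0.02, 18 samples). On bottom arrays r was 0.912 (adjusted permutation p = 0.00054), and 0.629 without the same 2 rats (permutation p = 0.00299). On top arrays r was 0.285 and rho 0.167 (adjusted permutation p = 0.246 and p = 0.539). The difference between the bottom and top correlations was not tested. Both genes share the array at either level.

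**Figure D4:**
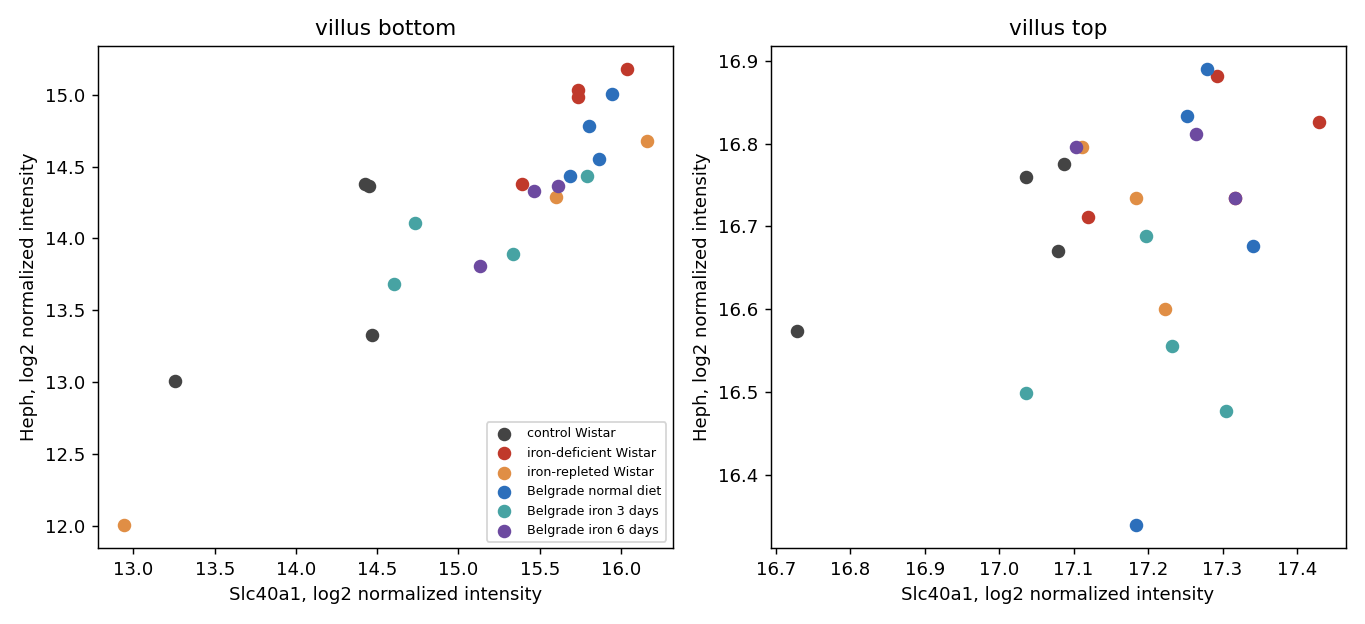
Log2 normalized intensity of Heph (vertical axis) against that of Slc40a1 (horizontal axis) on the 22 villus bottom arrays (left) and the 22 top arrays (right), coloured by group. Bottoms run along a rising band from repleted rat 3 (12.94 and 12.002) to the iron-deficient rats; tops fill a cloud less than 1 unit wide on either axis.

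The genes most like ferroportin over the 20 counted samples, among 12974 genes each with 1 probe set, were Abcg2 (Pearson r = 0.956), an apical efflux pump, Ampd3 (0.945), an AMP deaminase, Slc11a2 (0.938), the importer DMT1, Tmem167b (0.934) and Bcar3 (0.933). Those most like hephaestin were Ms4a8 (0.955), Abcg2 (0.926), Bcar3 (0.925), Ddx60 (0.906) and Prr15 (0.902). Heph ranked 32 among the genes most like Slc40a1, and Slc40a1 ranked 19 for Heph. These correlations are over all groups and share the arrays and their composition.

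Other genes of iron export were read from a list of 22 partners and regulators, of which 19 had a probe set with a single symbol. Hephl1, Fth1 and Ftl1 are not analysed here. Between iron-deficient and control rats 2 of 19 were called higher and 0 lower, with a median of 0.08, beside -0.02 over all probe sets and 0.404% called. Atp7a, the copper pump that loads hephaestin with its metal in the secretory pathway, rose from 13.11 to 14.49, by 1.39 ± 0.26 (limma adjusted p = 0.035). Cybrd1, the brush-border ferric reductase, rose by 2.13 (adjusted p = 0.035). None of the 19 was called in the other 8 comparisons over both levels. At the villus top, Atp7a (1.31, adjusted p = 0.0193), Cybrd1 (0.71, adjusted p = 0.029) and Rnf217, a ubiquitin ligase that acts on ferroportin (2.12, from 9.67 to 11.79, adjusted p = 0.0309), were called higher in iron-deficient rats. Atp7a was also called higher at the top in Belgrade rats against control (1.69, adjusted p = 0.0219). These calls are with all rats and were not refitted without the stroma-rich ones.

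Along the villus 11 of the 19 were called higher at the top and 4 lower, with a median of 0.70, where 54.2% of all probe sets were called and 25.5% called higher. Among the regulators, Ireb2, which encodes iron regulatory protein 2, was 3.29 higher at the top, Fbxl5, its ligase, 0.96 and Epas1, which encodes HIF-2α, 1.09. Aco1, iron regulatory protein 1, was 0.77 lower (difference -0.77). The heme-sensing repressor Bach1 was 1.41 higher, but its mean level of 7.70 was below the 40th percentile of the arrays, 8.99. Among transporters and enzymes, Cybrd1 was 3.01 higher, Atp7a 1.84, Slc11a2 1.22, Cp (ceruloplasmin) 1.03, Slc31a1 (copper uptake) 0.80, Rnf217 0.70 and Mon1a, which acts in ferroportin trafficking, 0.36. The iron chaperones Pcbp1 (-0.67) and Pcbp2 (-1.20) and the stress factor Nfe2l2 (-0.60) were lower at the top. Heph at 2.52 and Slc40a1 at 2.01 lay below Ireb2 and Cybrd1 and above the rest of the list.

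**Figure D5:**
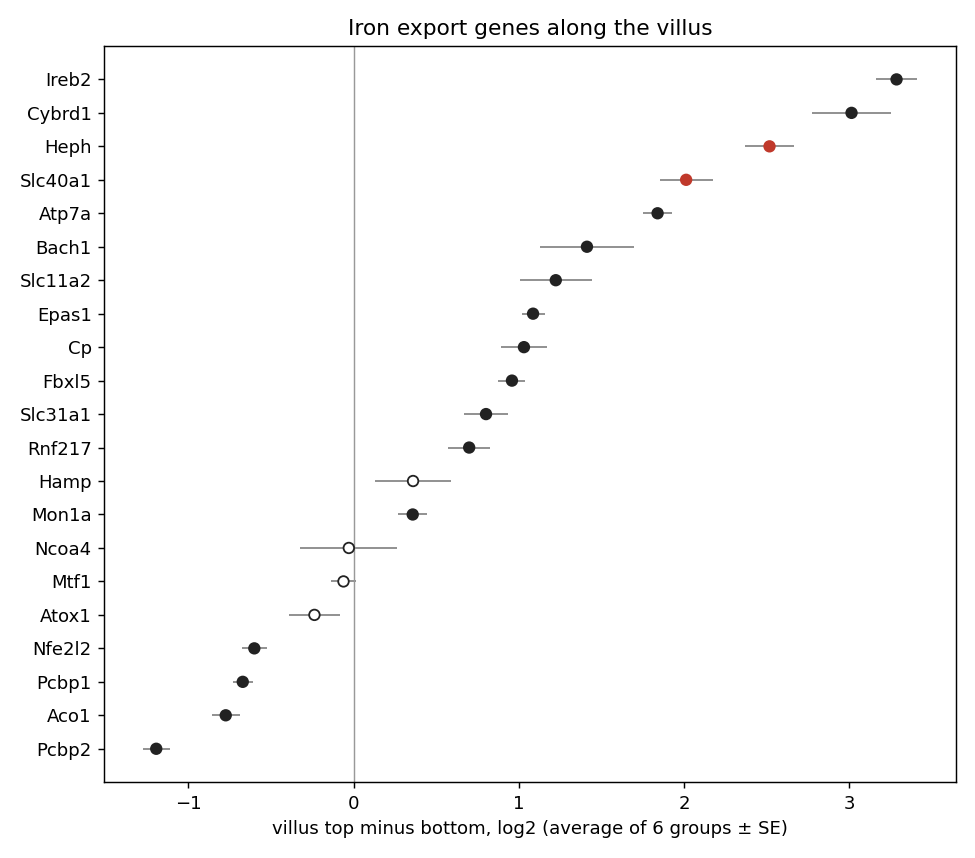
Villus top minus bottom difference on the log2 scale (horizontal axis), averaged over the 6 groups with its SE, for Slc40a1 and Heph (red) and the 19 measured partners and regulators (black filled, called; open, not called). Slc40a1 (2.01) and Heph (2.52) stand in the upper part of the list, between Atp7a (1.84) and Cybrd1 (3.01).

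Other proteins of the basolateral membrane were less uniform. Of 12 measured genes of a list of 14, 8 were called higher at the top and 2 lower, with a median of 0.61, again beside 54.2% of all probe sets called and 25.5% called higher. Slc2a2, the glucose exit transporter, was 1.83 higher and Slc7a7, an amino acid exit transporter, 1.62, whereas Kcnn4, a potassium channel (-2.70), and Slc12a2, the chloride loader of secretory cells (-1.88), were lower. None of the 12 was called in any of the 9 comparisons over both levels, and their median between iron-deficient and control rats was -0.22. At the villus top 10 of 12 were lower in iron-deficient rats, with a median of -0.56, and 3 were called lower and 0 higher, where 0.977% of probe sets were called. These 3 were the amino acid transporters Slc7a7 (-1.17, limma adjusted p = 0.00984), Slc7a8 (-1.49, adjusted p = 0.036) and Slc16a10 (-1.59, adjusted p = 0.036). They too were fitted with all rats only.

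The crypt arrays came from 1 rat and carry no replicate error. Ferroportin was at 60729.8 intensity units in the lower crypt and 165835 in the upper crypt for the brightest probe set, which are levels of 15.93 and 17.30 when placed on the villus scale. Hephaestin was at 30363.1 and 85390.4, levels of 14.97 and 16.28. The lower crypt array was thus above every control bottom, and the upper crypt array above every control top for ferroportin and below every control top for hephaestin. Enterocyte markers had means of 15.27 and 16.55 on these arrays, and proliferation markers 13.03 and 11.41, where villus bottoms had 12.78 to 13.61 and tops 9.69 to 12.12. The lower crypt array therefore carried enterocyte markers at the level of a villus bottom. The upper crypt array carried both enterocyte and proliferation markers within the range of villus tops, which was 16.12 to 16.80 for enterocyte markers.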

How the data were processed

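The deposited values are intensities, 1 per probe set and array, on a linear scale; how the authors summarised probes into intensities is not given in the sources used here, and the deposited arrays had median intensities of 597 to 1179. Biotin-labelled target from total RNA was hybridised, per the labels' protocols. From these values log2(intensity + 44) was computed (44 is the 10th percentile of the villus values) and quantile normalized over the 44 villus arrays; the 2 crypt arrays were placed on the same quantiles. Probe sets above their array's 40th percentile on at least 3 arrays were kept. Rats of a group whose arrays differed by a robust SD under 0.2 at both levels were averaged: 2 pairs at 0.147 to 0.179, against 0.231 to 0.729 for the other 28. They differed by less than any other rats of a group and were counted as 1 sample.

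Means of top and bottom, each level alone, and within-rat differences were fitted over 6 groups with limma 3.58.1 (lmFit, eBayes with trend) in R 4.3.3, after the procedure was tested on simulated data. Array values are bounded by quantile normalization, which fixes the level of each rank. P-values measure the spread between rats. The iron-export, basolateral and marker lists, the members and the tests were chosen with earlier results of these data known. Text names all member probe sets, list members called in a comparison, with examples from the marker and basolateral lists, and the 5 genes most correlated with each member; genes of the basolateral list named with values were picked after seeing them. The 7 lymphocyte and plasma cell markers had means of 9.99 to 11.32 over the 22 bottom arrays; 6 were lower in iron-deficient than in control bottoms, with a median of -0.55 and 0 called. Gene names come from the platform annotation; 20826 probe sets had exactly 1 symbol. Alternatives covered the pseudocount, normalization, filter, trend, pairing, covariates and each left-out sample; those leaving out iron-repleted rat 3 at 1 level or with the stroma covariate, or both stroma-rich rats, were added after seeing the data.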

Additional observations from a re-analysis of the deposited data

Results flagged for a closer look

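Iron-deficient rat 4 stood apart from the other 3 rats of its group for 3 of the 4 probe sets, on the mean of top and bottom. Its Heph level was 15.54, with the nearest rat at 15.91. The second Slc40a1 probe set was at 15.86 (nearest 16.38) and the dim one at 11.93 (nearest 13.44). Rat 4 of the Belgrade group with 3 days of iron stood apart for the dim Slc40a1 probe set, at 13.76 with the nearest rat at 12.76. These 4 were found in 32 groups tested, and chance sets apart about 1 group in 20. The brightest Slc40a1 probe set did not set iron-deficient rat 4 apart by this rule.

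The upper crypt array, which enters no comparison, exceeded every control villus array for the 3 Slc40a1 probe sets, and the lower crypt array did so for the dim one alone. The brightest probe set was at 165835 intensity units on the upper crypt array, where the highest control villus array had 145946. The second was at 126186 against 116686. The dim probe set was at 13285.8 on the lower and 17282.6 on the upper crypt array, against 10815.8. These arrays come from 1 rat of a separate experiment, so the rat, the experiment and the crypt cannot be told apart. The upper crypt array also carried enterocyte and proliferation markers within the range of villus tops.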

How the results depend on the processing

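The 32 results of Slc40a1 and Heph (their brightest probe sets, between groups and along the villus) had 1090 values under alternatives. Of these 1027 kept direction and side of the threshold, 13 crossed to called and 50 changed sign; the causes were not tested. Only the Slc40a1 and Heph top minus bottom differences averaged over the groups were called in the fit reported above, and these stayed called. Most unchanged values are thus differences that stayed uncalled. The slopes of single groups are not among these results. No difference that changed sign was called in the fit reported above. The probe sets called between iron-deficient and control rats were 107, and 7 after median centring, 0 without the trend, 680 with all 22 rats, 425 in a fit of the 2 groups alone, 1 with the stroma covariate, 18 with the Xist covariate and 0 to 473 leaving out 1 sample at a time. Quantile normalization bounds the levels of bright probe sets, and the number of rats limits precision.

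On the values as deposited, Slc40a1 was at -0.0059 for Belgrade minus iron-deficient and -0.080 for Belgrade 3-day minus repleted, and repleted minus control in the top minus bottom difference was 0.15 for Heph and 0.0087 for the second probe set. Median centring put Belgrade minus iron-deficient at -0.0024 for Slc40a1. With all 22 rats counted separately, iron-deficient minus control was 0.94 for Slc40a1 (adjusted p = 0.0347), and repleted minus control for Heph was -0.048, and 0.13 in the top minus bottom difference. The fit of the 2 groups alone gave 1.00 for Slc40a1 in iron-deficient minus control (adjusted p = 0.0318).

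Rat numbers are shared by the groups, but in 0 of 15 pairs of groups did every same-numbered pair of rats correlate above 0.1, so the numbers do not pair the rats. In a further fit every rat was counted separately, including the pairs averaged above, and the rat number was a replicate block. This fit made both changes at once and called 1317 probe sets between iron-deficient and control rats. Slc40a1 was then 0.94 (adjusted p = 0.00897) and Heph 0.61 (adjusted p = 0.0307), Belgrade minus control was 0.98 for Slc40a1 (adjusted p = 0.0356), and repleted minus control was -0.088 for Heph.

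With the stroma covariate, repleted minus control was -0.068 for Heph. Belgrade 6-day minus normal diet was 0.17 for Heph, 0.23 for Slc40a1 and 0.13 for the second probe set, and Belgrade 3-day minus repleted was -0.16, -0.22 and -0.014. Without repleted rat 3 as well, these last were -0.36, -0.45 and -0.22, Belgrade 6-day minus normal diet was 0.040 for Heph and 0.074 for Slc40a1, repleted minus iron-deficient was 0.11 for Slc40a1, and repleted minus control was -0.18 for the dim probe set. With Xist above or below a level of 12 as a covariate, Belgrade 6-day minus normal diet was 0.055 for Heph and Belgrade minus iron-deficient -0.025 for the dim probe set.

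On villus tops alone, with or without repleted rat 3, Belgrade minus control was -0.045 for Heph, Belgrade minus iron-deficient -0.026 for Slc40a1, Belgrade 6-day minus normal diet 0.15 for Heph and 3-day minus normal diet 0.023 for the dim probe set. Belgrade 3-day minus repleted was -0.15 for Heph (-0.14 without that rat) and -0.58 for the dim probe set, for which repleted minus iron-deficient was 0.68 and, without that rat, repleted minus control -0.37. On bottoms alone the dim probe set was at -0.15 for repleted minus control and -0.069 for Belgrade minus iron-deficient, the latter also without repleted rat 3 or both stroma-rich rats.

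On bottoms without repleted rat 3, iron-deficient minus control was 1.33 for Heph (adjusted p = 0.0204) and 1.67 for Slc40a1 (adjusted p = 0.00783). Repleted minus control was 1.83 for Slc40a1 (adjusted p = 0.0206) and Belgrade minus control 1.77 (adjusted p = 0.0227). Repleted minus iron-deficient was 0.15 for Slc40a1, and Belgrade 3-day minus repleted -0.45 for Heph, -0.76 for Slc40a1 and -0.42 for the second probe set, values that were the same without both stroma-rich rats. Over both levels without both rats these were 0.016 and -0.30, -0.37 and -0.15, and repleted minus control was -0.30 for the dim probe set. In the top minus bottom difference without both rats, repleted minus iron-deficient was -0.28 for Slc40a1 and -0.015 for the second probe set, and repleted minus control -0.76 for the dim one.

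Leaving out 1 sample at a time, iron-deficient minus control ran from 0.56 to 0.95 for Heph and from 0.75 to 1.14 for Slc40a1, and Belgrade minus control from 0.78 to 1.17 for Slc40a1. Repleted minus control ran from 0.20 to 1.02 for Slc40a1, -0.16 to 0.47 for Heph and -0.061 to 0.47 for the dim probe set. Repleted minus iron-deficient ran from -0.80 to 0.016 for Slc40a1. Belgrade minus iron-deficient ran from -0.048 to 0.092 for Slc40a1 and -0.39 to 0.15 for the dim probe set. Belgrade 3-day minus repleted ran from -0.30 to 0.34 for Heph, -0.37 to 0.44 for Slc40a1, -0.15 to 0.61 for the second and -0.14 to 0.37 for the dim probe set. In the top minus bottom difference, repleted minus control ran from -0.89 to 0.52 for Heph, -1.20 to 0.27 for the second and -0.82 to 1.75 for the dim probe set, and repleted minus iron-deficient from -0.28 to 1.31 for Slc40a1 and -0.015 to 1.45 for the second. The dim probe set ran from -0.37 to 0.33 for Belgrade 6-day and -0.014 to 0.71 for 3-day minus normal diet. Its average top minus bottom difference was not called without 14 of the 20 samples, one at a time, or on the values as deposited (0.57, adjusted p = 0.0646). The correlation of Slc40a1 with Heph was 0.285 on tops with group means removed and 0.269 over all groups, neither past the threshold.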
